A study of Arabidopsis thaliana with 12 samples.

Results

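Tetraspanins are small membrane proteins that cross the plasma membrane several times and gather other proteins into membrane microdomains. In Arabidopsis thaliana the first gene of the family, TET1, is also TORNADO2 (TRN2). Loss of TRN2, or of the unrelated leucine-rich repeat protein TORNADO1 (TRN1), gives twisted organs, and both genes act in patterning of the root and the leaf. The genes described here are the tetraspanins TET1/TRN2 to TET9 and TRN1. They were selected by locus identifier, 10 of the 28775 loci counted, and all 10 were found. Of these, 9 passed the filter on low counts, as did 19733 of all loci, and TET4 did not.

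RNA-seq was made from root meristems of seedlings in the Col-0 background that carried pRPS5A::DOF2.1-GR. This construct places the transcription factor DOF2.1, fused to the steroid-binding domain of the glucocorticoid receptor (GR), under the RPS5A promoter of dividing cells. The synthetic steroid dexamethasone (DEX) lets the fusion enter the nucleus. Seedlings were 5 days old and grown at 22 °C, and each sample pooled 300 root tips. There were 3 biological repeats in each of 4 groups, namely medium with 10 µM DEX for 1 h, for 2 h or for 4 h, and the control collected at 1 h, and every group carried the construct. No DEX dose is listed for the control, and whether it received the solvent of DEX was not established here. Neither a control at 2 h or 4 h nor a line without the construct was analysed here, so changes at 2 h and 4 h include elapsed time, and an effect of DEX itself cannot be told apart from that of DOF2.1.

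Library totals ran from 14142082 to 17522834 counts. DOF2.1 reads, which come from the endogenous gene and the construct together, averaged 67.4, 64.1 and 51.6 normalized CPM at 1 h, 2 h and 4 h of DEX, against 85.3 in the control. Normalized CPM are counts scaled to the library total times its TMM factor, and 1 count was worth 0.0538 to 0.0739 CPM. All 8 markers of the root meristem and all 3 of the root cap had counts in every library. The meristem markers summed to 873 to 1108 CPM at DEX 1 h, 1195 to 1236 at DEX 2 h and 1133 to 1256 at DEX 4 h, against 1039 to 1114 CPM in the control, and most of that sum was RPS5A. Within the list WOX5, of the quiescent centre, averaged 4.196, 1.78 and 1.09 CPM at DEX 1 h, 2 h and 4 h, against 5.32 in the control. SCR averaged 44.1, 50.6 and 39.1 CPM at these times, against 65.6 in the control. SHR, PLT1 and PLT2 also had lower means in every DEX group than in the control. CYCB1;1, KNOLLE and RPS5A were instead lower at DEX 1 h and higher at DEX 2 h and 4 h. CYCB1;1 averaged 18.0, 25.9 and 28.0 CPM at DEX 1 h, 2 h and 4 h, against 20.7 in the control. KNOLLE averaged 50.1, 55.0 and 69.0 CPM, against 53.9, and RPS5A 795, 1005 and 1006 CPM, against 839. Summed root cap markers ranged from 41.7 to 50.9 CPM at DEX 1 h, from 40.7 to 49.5 at DEX 2 h and from 59.1 to 62.7 at DEX 4 h, against 57.6 to 62.9 CPM in the control. For the 5 markers of differentiated root the ranges were 340 to 357, 256 to 313 and 299 to 326 CPM at DEX 1 h, 2 h and 4 h, against 313 to 392 CPM in the control. Within this list IRX3 averaged 36.3, 22.6 and 17.9 CPM at these times, against 42.4 in the control. COBL9 averaged 42.3, 32.3 and 29.3 CPM, against 47.6, and XCP1 also had lower means in every DEX group. EXPA7 instead had higher means in every DEX group, and CASP1 was higher at DEX 1 h and 4 h and lower at 2 h. The 4 markers of green shoot tissue summed to 8.08 to 12.7, 11.2 to 15.1 and 15.4 to 18.4 CPM at the same DEX times, against 7.90 to 12.6 CPM in the control. Among them LHCB2.1 was at 0 to 5 counts. The part of these shifts in the results below was not tested. The RNA is from bulk tissue, in which fewer cells of a type and less RNA per cell cannot be told apart.

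TET1/TRN2, TET5 and TET6 were the 3 members called higher at 1 h, and the 250 bases before their annotated starts are shown because DOF proteins bind DNA at an AAAG core. Sequences and positions are from RefSeq assembly TAIR10.1, written in the direction of the gene, with AAAG on either strand (AAAG or CTTT) in capitals. The TET1/TRN2 window is chr5:18950593-18950842 on the plus strand, the TET5 window chr4:12223703-12223952 on the plus strand and the TET6 window chr3:3853867-3854116 on the minus strand.
TET1/TRN2: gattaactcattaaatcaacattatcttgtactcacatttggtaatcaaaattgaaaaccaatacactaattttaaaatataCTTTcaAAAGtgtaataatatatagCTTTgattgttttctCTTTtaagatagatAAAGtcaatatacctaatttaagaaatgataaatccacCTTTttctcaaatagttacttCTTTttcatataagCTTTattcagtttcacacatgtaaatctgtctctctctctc
TET5: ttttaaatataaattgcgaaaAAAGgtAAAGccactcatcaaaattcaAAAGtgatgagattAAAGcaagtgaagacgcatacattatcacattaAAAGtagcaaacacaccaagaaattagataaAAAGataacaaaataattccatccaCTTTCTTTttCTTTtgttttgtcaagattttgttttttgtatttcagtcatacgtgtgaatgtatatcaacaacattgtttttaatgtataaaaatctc
TET6: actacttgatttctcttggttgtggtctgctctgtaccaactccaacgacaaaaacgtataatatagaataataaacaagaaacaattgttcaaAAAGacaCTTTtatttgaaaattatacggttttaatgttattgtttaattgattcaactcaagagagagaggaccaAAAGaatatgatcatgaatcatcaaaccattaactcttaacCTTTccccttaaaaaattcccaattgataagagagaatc
TET1/TRN2 had 8 matches, TET5 had 9 and TET6 had 4. TRN1 had 3, and the remaining members had between 4 and 6. The motif is short: 98.0% of the 27443 windows of this length before protein-coding genes held at least 1 match, and the median was 4. At least 8 matches were held by 7.14% of windows and at least 9 by 3.21%. No test of match count against response was run. A match is a string of letters and not a measured binding site.

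**Figure D1:**
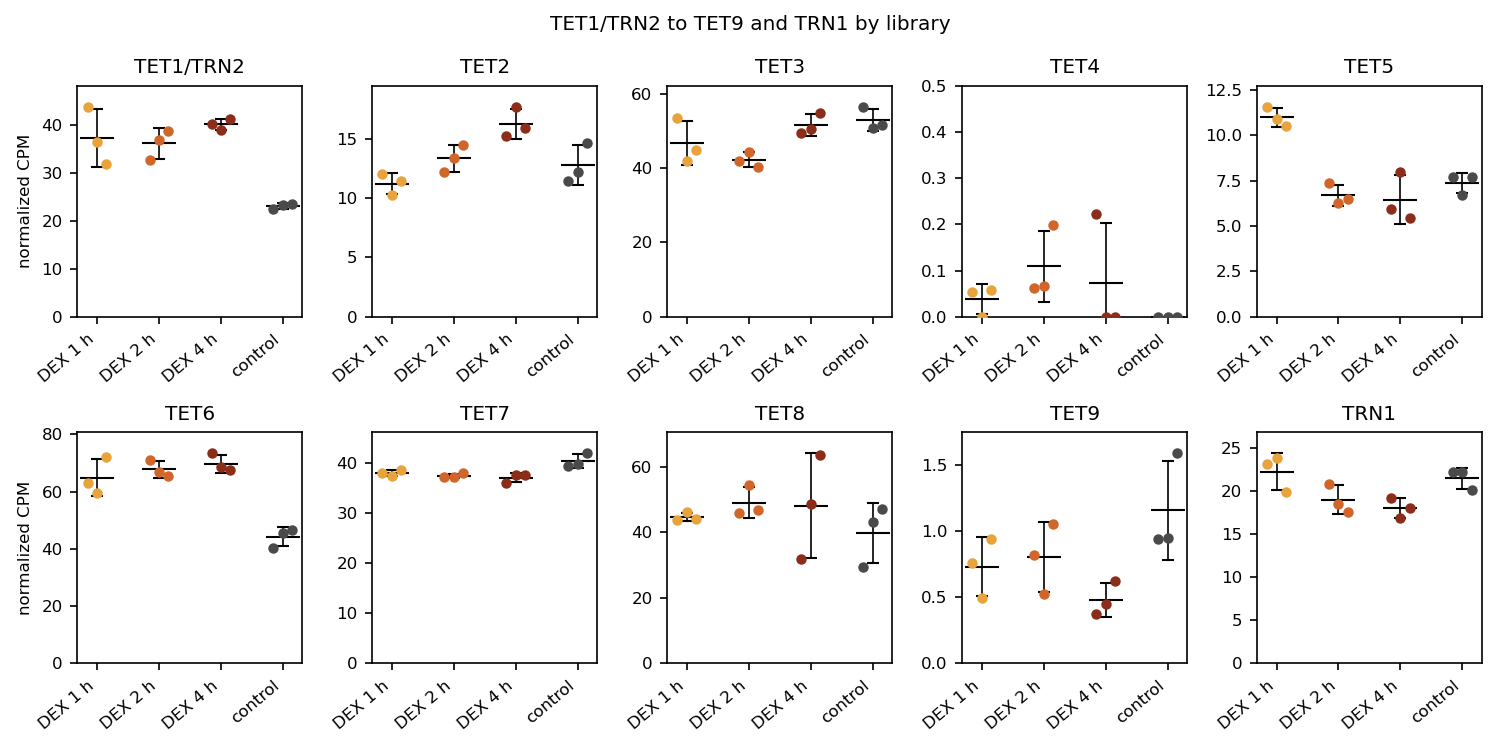
Normalized CPM (y axes, each from 0) of the 10 genes in each library, by group (x axes: DEX 1 h, 2 h, 4 h, control). Points are libraries, horizontal marks are means and bars are SD (n = 3). All DEX points of TET1/TRN2 and TET6 lie above all control points, TET5 is high at DEX 1 h, and TET4 stays near 0.

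Only 2 members, TET1/TRN2 and TET6, were higher at all 3 DEX times, by 1.47 to 1.74-fold. Other calls were confined to single times: TET5 was higher at 1 h and TET2 at 4 h, while TET3 was lower at 2 h, and TET9 and TRN1 were lower at 4 h. TET7 and TET8 were not called at any time. A call here means a Benjamini-Hochberg adjusted p under 0.05 over all 19733 loci in the quasi-likelihood test of edgeR. The 3 comparisons share the control libraries.

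At DEX 1 h against the control, 3 of the 9 tested members were called, all higher, beside 9.62% of all loci called in either direction, 5.03% higher and 4.59% lower. The median log2 fold change was 0.051 over the members and -0.0097 over all loci. At DEX 2 h, 3 of 9 were called, 2 higher and 1 lower, beside 35% of all loci, 16.5% higher and 18.5% lower. At DEX 4 h, 5 of 9 were called, 3 higher and 2 lower, beside 50.3% of all loci, 24.7% higher and 25.6% lower. The shares at 2 h and 4 h are thus near those of all loci. Median log2 fold changes of the members were -0.11 and -0.038 at 2 h and 4 h, against -0.0065 and 0.00031 over all loci. DEX and control libraries did not overlap for 4, 4 and 6 of the 9 members at 1 h, 2 h and 4 h, beside 26.5%, 51.7% and 59.2% of all loci. Between DEX times, 1 member was called for DEX 2 h over DEX 1 h, beside 31.3% of all loci. For DEX 4 h over DEX 2 h, the main edgeR fit and DESeq2 called 0, beside 7.34% of all loci in the main edgeR fit. In that fit 2 members had an unadjusted p under 0.05. TET3 (log2 0.29, edgeR adjusted p 0.0535) was called only in alternative edgeR fits, given at the end. For DEX 4 h over DEX 1 h, 3 were called, beside 48.6% of all loci.

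**Figure D2:**
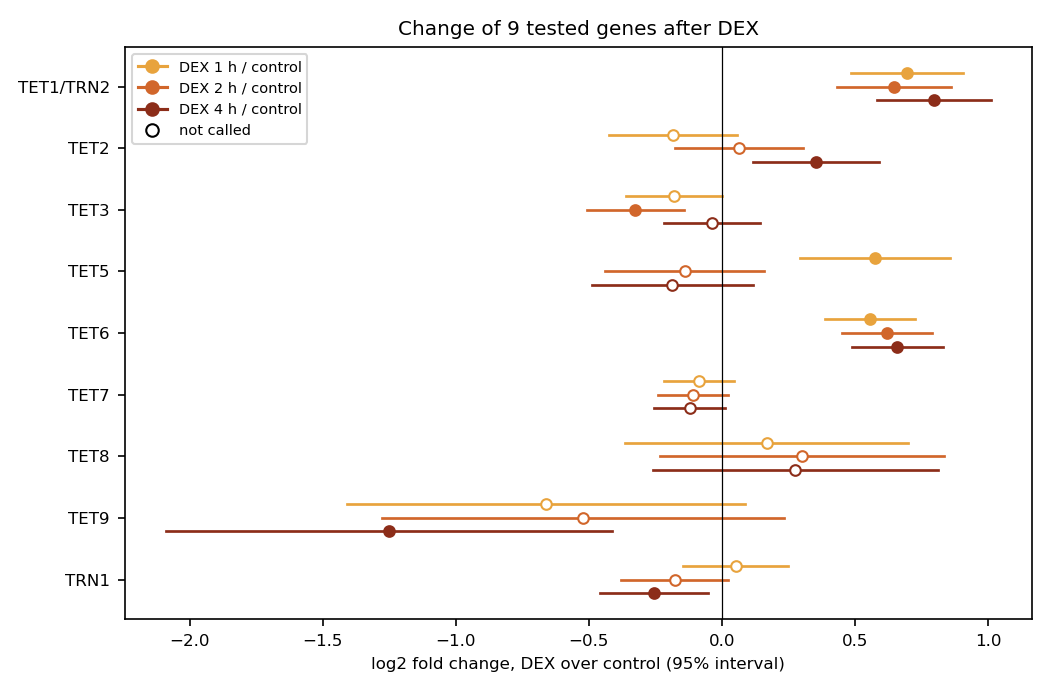
Log2 fold change of DEX over control (x axis) for the 9 tested genes (y axis) at each DEX time. Points are edgeR estimates, lines 95% intervals, filled points called at an adjusted p under 0.05 and open points not called. TET1/TRN2 and TET6 have filled points on the right at all 3 times.

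TET1/TRN2 (AT5G46700, chr5:18950843-18953127 on the plus strand in TAIR10.1, 2 exons) is the tetraspanin in the title of the study. It had 43.9, 36.5 and 31.9 CPM in DEX 1 h libraries, 32.7, 37.0 and 38.9 at DEX 2 h and 40.4, 39.0 and 41.3 at DEX 4 h, against 22.5, 23.3 and 23.6 in control libraries. Every DEX library lay above every control library, and the spread was widest at DEX 1 h, where the coefficient of variation was 16.2%, against 2.37% in the control. TET1/TRN2 was thus 1.62-fold, 1.56-fold and 1.74-fold as high as the control at 1 h, 2 h and 4 h (95% intervals 1.40 to 1.87, 1.35 to 1.81 and 1.50 to 2.01; edgeR adjusted p 0.000206, 0.000203 and 1.05e-05). Between DEX times no step was called. The log2 change was -0.05 ± 0.10 (SE) for DEX 2 h over DEX 1 h and 0.15 ± 0.10 for DEX 4 h over DEX 2 h (edgeR adjusted p 0.740 and 0.362). Over DEX 4 h against DEX 1 h it was 0.10 (edgeR adjusted p 0.404), and it was 0.23 and called without DEX 1 h replicate 1 (0.0399) but -0.0049 without DEX 1 h replicate 3 (0.967).

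The TET1/TRN2 gene overlaps AT5G46710, annotated as a PLATZ transcription factor family gene, on the opposite strand over 525 bases. The libraries came from a stranded kit, but the strand setting of the authors' counting is not given in the sources used here, so reads in the overlap may be shared. AT5G46710 had 18.6, 20.4 and 22.0 CPM at DEX 1 h, 11.9, 14.3 and 12.8 at DEX 2 h and 13.5, 14.3 and 19.2 at DEX 4 h, against 9.07, 8.98 and 9.57 in the control. It was called higher at all 3 times, with 1.14, 0.50 and 0.77 on the log2 scale (edgeR adjusted p 1.1e-05, 0.00753 and 0.000133). Mean TET1/TRN2 CPM exceeded the control by 14.3, 13.1 and 17.1 at DEX 1 h, 2 h and 4 h, and mean AT5G46710 CPM by 11.1, 3.80 and 6.46. The part of shared reads in either change was not tested.

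TET6 (AT3G12090) and TET5 are a pair of related genes whose double mutant in Arabidopsis is known for larger organs. TET6 lies at chr3:3852125-3853866 on the minus strand with 3 exons. Its level was 62.9, 59.6 and 72.3 CPM at DEX 1 h, 71.2, 66.9 and 65.4 at DEX 2 h and 73.3, 68.5 and 67.4 at DEX 4 h, against 40.4, 45.6 and 46.5 in the control. The DEX libraries all lay above the control libraries and overlapped one another. DEX over control gave 1.47, 1.54 and 1.58 as folds (95% intervals 1.31 to 1.65, 1.36 to 1.73 and 1.40 to 1.78; edgeR adjusted p 0.000211, 4.09e-05 and 7.7e-06). No step between DEX times was called, with edgeR adjusted p-values of 0.566, 0.800 and 0.294. Without DEX 1 h replicate 3 the step for DEX 4 h over DEX 1 h was 0.18 on the log2 scale and was called (adjusted p 0.0494), and without DEX 1 h replicate 2 it was 0.045 (0.703). The gene emb2738 (AT3G12080) overlaps TET6 on the opposite strand by 14 bases. It averaged 16.1, 19.2 and 20.9 CPM at the 3 DEX times, against 15.6 CPM in the control, and was called at 2 h and 4 h (edgeR adjusted p 0.0241 and 0.00193).

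TET5 (AT4G23410, chr4:12223953-12225508 on the plus strand) had 11.6, 10.9 and 10.5 CPM at DEX 1 h, 7.36, 6.25 and 6.47 at DEX 2 h and 5.91, 7.99 and 5.46 at DEX 4 h, against 7.73, 6.74 and 7.68 in the control. Its DEX 1 h libraries stood above all others, and the later DEX libraries overlapped the control. At 1 h it was 1.49-fold higher (95% interval 1.23 to 1.81, edgeR adjusted p 0.0105), and without control replicate 2 the adjusted p was 0.0602. TET5 was not called at 2 h (log2 -0.14, edgeR adjusted p 0.470) or 4 h (-0.19, 0.290). Without DEX 4 h replicate 2 the 4 h value was -0.38 and was called (0.0369), and without DEX 4 h replicate 3 it was -0.078 (0.700). It was lower at DEX 2 h than at DEX 1 h (log2 -0.72 ± 0.14, SE, edgeR adjusted p 0.00126), and at DEX 4 h than at DEX 1 h (-0.76 ± 0.14, 0.000293). In fits of only the 2 groups compared, which hold no control library, the edgeR adjusted p was 0.00234 and 0.0024. The TET6 to TET5 ratio of counts within a library was 5.44, 5.47 and 6.86 at DEX 1 h, 9.67, 10.7 and 10.1 at DEX 2 h and 12.4, 8.56 and 12.4 at DEX 4 h, against 5.24, 6.76 and 6.06 in the control. This ratio overlapped between DEX 1 h and the control and lay above both in every DEX 2 h and 4 h library. It was computed after the values were seen, and no test was run on it. Coding sequences of the pair were identical at 64.6% of aligned bases.

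TET2 (AT2G19580) was the remaining member called higher. It had 12, 10.2 and 11.5 CPM at DEX 1 h, 12.2, 13.4 and 14.5 at DEX 2 h and 15.2, 17.7 and 15.9 at DEX 4 h, against 11.5, 12.2 and 14.7 in the control. Libraries of DEX 4 h lay above those of every other group, and the other groups overlapped the control. The fold change at 4 h was 1.28 (95% interval 1.08 to 1.50, edgeR adjusted p 0.0155). Leaving out DEX 4 h replicate 2, control replicate 1 or control replicate 2 ended that call, with adjusted p-values up to 0.0773. TET2 was also higher at DEX 4 h than at DEX 1 h (log2 0.54 ± 0.11, SE, edgeR adjusted p 0.00102, and 0.00313 with only these 2 groups in the fit), and this call held without any 1 of the 6 libraries. A non-coding RNA on the opposite strand, AT2G19582, overlaps TET2 over 1549 bases and had 0 to 3 counts per library.

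**Figure D3:**
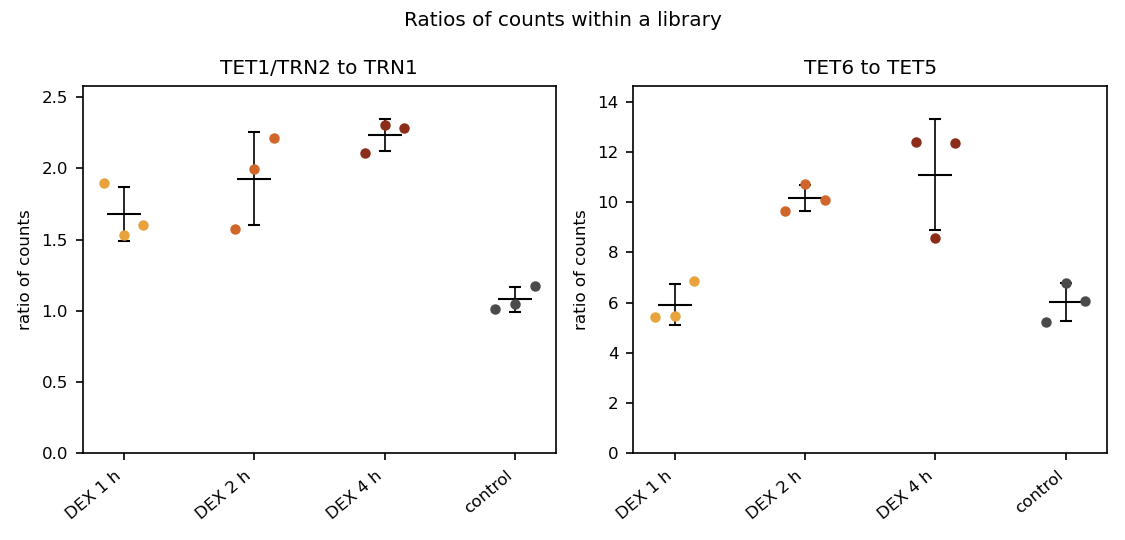
Ratio of counts of TET1/TRN2 to TRN1 (left) and of TET6 to TET5 (right) in each library (y axes, from 0), by group (x axes). Points are libraries, horizontal marks means and bars SD (n = 3). The TET1/TRN2 to TRN1 ratio lies above the control in every DEX library, and the TET6 to TET5 ratio does so at DEX 2 h and 4 h.

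TRN1 (AT5G55540, chr5:22496196-22500714 on the minus strand) did not rise with TRN2. It had 23.1, 23.8 and 19.9 CPM at DEX 1 h, 20.8, 18.5 and 17.6 at DEX 2 h and 19.2, 16.9 and 18.0 at DEX 4 h, against 22.2, 22.2 and 20.1 in the control. DEX 4 h libraries lay below all control libraries, and the earlier DEX groups overlapped the control. The fold at 4 h was 0.837 (95% interval 0.728 to 0.964, edgeR adjusted p 0.0350). It did not pass in DESeq2 (adjusted p 0.0637) or once DEX 4 h replicate 2, DEX 4 h replicate 3, control replicate 1 or control replicate 2 was left out (adjusted p up to 0.124). The ratio of TET1/TRN2 to TRN1 counts needs no scaling for depth. It was 1.90, 1.54 and 1.61 at DEX 1 h, 1.57, 2.00 and 2.21 at DEX 2 h and 2.11, 2.31 and 2.29 at DEX 4 h, against 1.01, 1.05 and 1.18 in the control, with no overlap between DEX and control libraries. On the log2 scale, with 0.5 added to each count, DEX exceeded the control by 0.63, 0.82 and 1.05 at 1 h, 2 h and 4 h. The exact two-sided permutation p was 0.1 at each time, the smallest that 3 against 3 libraries allow. Over DEX 4 h against DEX 1 h the log2 ratio differed by 0.42 (exact permutation p 0.1), again with no overlap. For DEX 2 h over DEX 1 h and DEX 4 h over DEX 2 h it differed by 0.19 and 0.23. Libraries overlapped in both of these steps (exact permutation p 0.3 and 0.2).

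Lower calls among the tetraspanins were those of TET3, whose protein has been found at plasmodesmata, and of TET9, the partner of TET8 in vesicles. TET3 (AT3G45600) had 42.0, 44.4 and 40.3 CPM at DEX 2 h, against 56.4, 50.8 and 51.5 in the control, without overlap (fold 0.798, 95% interval 0.703 to 0.905, edgeR adjusted p 0.00808). At DEX 1 h its libraries had 53.4, 42.0 and 44.8 CPM and at DEX 4 h 49.4, 50.4 and 54.8 CPM, both overlapping the control and not called (edgeR adjusted p 0.221 and 0.738). Without DEX 1 h replicate 1, the highest of its group, the 1 h log2 fold change was -0.29 and was called (adjusted p 0.0315), and without DEX 1 h replicate 2 it was -0.11 (0.573). TET9 (AT4G30430) had 5 to 9 counts in each DEX 4 h library, against 16 to 26 in each control library. Its fold at 4 h was 0.420 with a wide 95% interval of 0.235 to 0.750 (edgeR adjusted p 0.0147), and leaving out DEX 4 h replicate 1 or control replicate 3 ended the call (adjusted p 0.0552 and 0.0792). At DEX 1 h and 2 h it had 9 to 16 and 8 to 16 counts and was not called (edgeR adjusted p 0.285 and 0.274). TET3 and TET9 also overlap genes on the opposite strand, by 100 and 132 bases for AT3G45590 and AT4G30420, neither of which was called at any DEX time. Each also overlaps a non-coding RNA on the opposite strand, over 1069 bases for TET3 and 469 for TET9. Neither RNA is among the loci counted.

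TET7 and TET8 were not called at any time, and their libraries differed in spread. TET7 (AT4G28050) had 37.4 to 38.7 CPM at DEX 1 h, 37.2 to 38.0 at DEX 2 h and 36.0 to 37.7 at DEX 4 h, against 39.4 to 42.0 in the control. Every DEX library lay below every control library, yet the folds were 0.942, 0.927 and 0.919 and none was called (edgeR adjusted p 0.449, 0.189 and 0.114). Among all loci 13.9%, 26.3% and 30% were lower without overlap at the 3 times. At 4 h the 95% interval of the fold was 0.838 to 1.01, and when library totals alone set the scale the change was called (log2 -0.18, adjusted p 0.0313). TET7 overlaps AT4G28040 on the opposite strand by 180 bases. That gene averaged 7.06, 5.15 and 6.33 CPM at the DEX times, against 6.49 in the control, and was not called (edgeR adjusted p 0.845, 0.422 and 0.932). TET8 (AT2G23810), whose protein is a marker of plant extracellular vesicles, had 43.9, 46.2 and 44.0 CPM at DEX 1 h, 45.9, 54.5 and 46.7 at DEX 2 h and 31.7, 48.7 and 63.8 at DEX 4 h, against 29.4, 43.0 and 47.0 in the control. The lowest TET8 libraries were replicate 1 of DEX 4 h and replicate 1 of the control. Folds of 1.12, 1.23 and 1.21 were not called (edgeR adjusted p 0.745, 0.363 and 0.366), and their 95% intervals, 0.777 to 1.62, 0.851 to 1.78 and 0.835 to 1.75, include the folds seen for TET6. The 4 h log2 fold change of TET8 was 0.28 and depended on single libraries. It was 0.50 and called without DEX 4 h replicate 1 (adjusted p 0.0340), but 0.021 without DEX 4 h replicate 3 (0.945) and 0.097 without control replicate 1 (0.757).

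TET4 (AT5G60220) was close to undetected. Its reads numbered 10 over the 9 DEX libraries, with at most 3 in any, and 0 over the 3 control libraries. A count of 0 allows up to 3 counts, or 0.161 to 0.222 CPM per library. TET4 did not pass the filter on low counts, so its difference from the control was not tested in the main edgeR fit. It overlaps AT5G60230 on the opposite strand by 110 bases, a gene that was not called at any DEX time. TET3 and TET4 were the closest pair of coding sequences, identical at 79.6% of aligned bases, and TET8 and TET9 followed at 73.1%. No pair of the 9 tetraspanins shared a stretch of 50 coding bases. Deposited counts were whole in every library for TET1/TRN2, TET3 to TET6, TET8 and TRN1, and lay at most 0.094 from a whole number for TET2, TET7 and TET9.

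**Figure D4:**
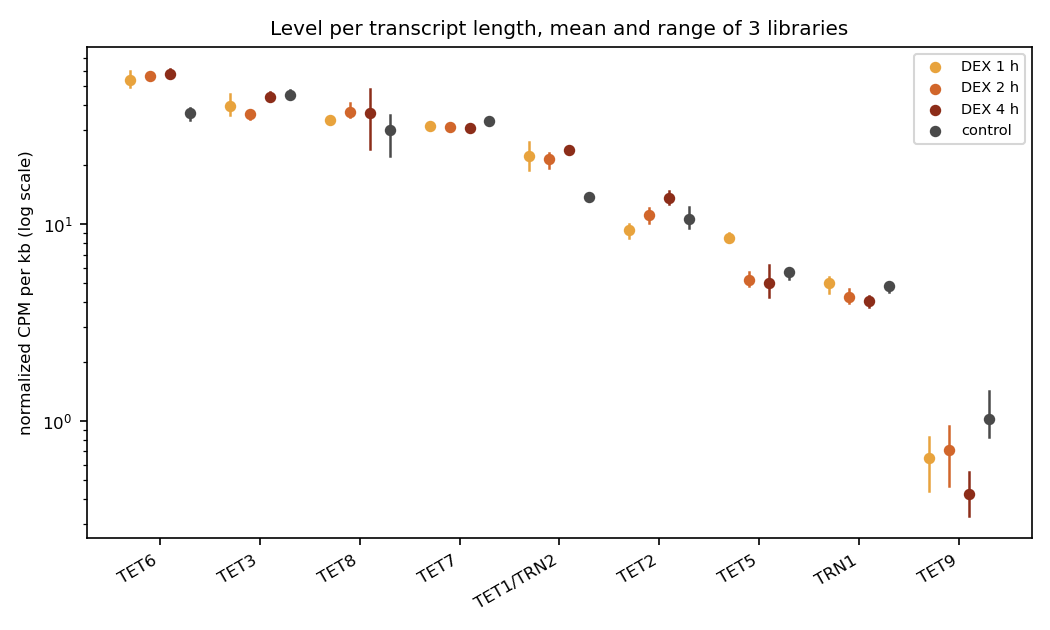
Normalized CPM per kilobase of the longest annotated transcript (y axis, log scale) for the 9 tested genes (x axis) in each group. Points are means and lines the range of 3 libraries. TET6 stands highest in the 3 DEX groups and TET3 in the control, and TET9 is lowest in every group.

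Levels were set against each other per transcript length, as CPM per kilobase. At DEX 4 h the order was TET6 at 58.0 ± 2.62 (SD, n = 3), TET3 at 43.9 ± 2.45, TET8 at 36.4 ± 12.2, TET7 at 30.6 ± 0.797 and TET1/TRN2 at 23.8 ± 0.686. TET2 followed at 13.5 ± 1.06, TET5 at 5.01 ± 1.05, TRN1 at 4.06 ± 0.256 and TET9 at 0.426 ± 0.115. TET8 overlapped TET3, TET7 and TET1/TRN2 there, and TET5 overlapped TRN1. In the control TET3 came first at 45.1 ± 2.62, ahead of TET6 at 36.8 ± 2.72, and TET1/TRN2 stood at 13.7 ± 0.324. TET6, TET7 at 33.3 ± 1.12 and TET8 at 30.2 ± 7.01 overlapped in turn in the control. At DEX 1 h TET2 and TET5, at 9.33 ± 0.751 and 8.53 ± 0.405, overlapped, and at DEX 2 h TET8 and TET3 did so at 37.2 ± 3.59 and 36.0 ± 1.76.

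Summed over TET1/TRN2 to TET9, the level per kilobase was 199.8 ± 9.01 at DEX 1 h, 199 ± 4.16 at DEX 2 h and 212 ± 13.1 at DEX 4 h, against 176 ± 10.1 in the control (SD, n = 3). TET6 made up 27.0%, 28.4% and 27.5% of that sum at the 3 DEX times, against 20.8% in the control, and TET1/TRN2 11.1%, 10.8% and 11.2%, against 7.77%. The share of TET3 was 19.9%, 18.1% and 20.8% at the DEX times, against 25.7% in the control. That of TET7 was 15.7%, 15.5% and 14.5%, against 18.9%. A lower share need not be a lower level: at DEX 4 h TET3 itself stood at 43.9 per kilobase, against 45.1 in the control, while the sum was larger. These shares describe the sum and carry no test.

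The rest of the family, TET10 to TET17, was counted as a fixed list of 8 genes, of which 3 passed the filter. TET13 had no counts in any library, TET11, TET14, TET16 and TET17 had at most 4 in any, and TET15, with 2 to 17, was not called. None of the 3 tested was called at DEX 1 h, 2 were called at DEX 2 h and 1 at DEX 4 h, beside 9.62%, 35% and 50.3% of all loci. TET10 (AT1G63260) had 10.0, 11.6 and 11.6 CPM at DEX 2 h and 11.3, 11.4 and 11.3 at DEX 4 h, against 8.25, 9.52 and 8.48 in the control. Its log2 fold change was 0.34 at 2 h and 0.37 at 4 h (edgeR adjusted p 0.0262 and 0.0116), after -0.04 at 1 h (0.888). TET12 (AT5G23030) was lower at DEX 2 h, with 5.48, 6.18 and 7.06 CPM, against 8.55, 11.0 and 7.44 in the control (log2 -0.53, edgeR adjusted p 0.0222), and its change passed at neither 1 h nor 4 h. TET12 overlaps 1 gene on the opposite strand.

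Across the 12 libraries the loci whose log2 CPM was most like that of TET1/TRN2, among 17488 candidates, were AT2G38970, a RING finger family gene, with Pearson's r = 0.964, RCAR3 (AT5G53160), an abscisic acid receptor gene, with r = 0.961, and AT2G22660 with r = 0.959. RCAR3 had 61.8, 62.3 and 65.7 CPM at DEX 1 h, 2 h and 4 h, against 41.8 in the control. For TET6 they were AGP10 (AT4G09030), an arabinogalactan protein gene, with r = 0.967, RABA2D (AT5G59150), a Rab GTPase gene, with r = 0.966, and AT4G03140 with r = 0.960. AGP10 had 225, 272 and 322 CPM at the DEX times, against 90.3 in the control. TET1/TRN2 and TET6 correlated with each other at r = 0.845. These values are descriptions over libraries that fall into 4 groups, and the correlation includes the differences between groups and shared library effects.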

How the data were processed

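RNA-seq of root meristems was deposited as 1 file per library holding the authors' expected counts (estimates, some not whole) for every locus, unscaled. The submitters' processing notes name CASAVA, GSNAP, HTSeq, edgeR and genome build TAIR10, without versions or roles, and counter settings are not given in the sources used here. The unit was read from the values, of which 82.2% to 83.3% were exactly whole per library. Counts were rounded. Loci were kept by filterByExpr (minimum count 10, minimum total 15), scaled by TMM and tested in edgeR 4.0.16 under R 4.3.3, with 1 robust quasi-likelihood model over 12 libraries and group as its term. Benjamini-Hochberg adjustment ran over 19733 loci, with a threshold of 0.05. DESeq2 1.42.0, other scalings, no filter, truncation, 2-group fits, a replicate block and fits without each replicate were the alternatives. Standard errors are the absolute log2 fold change over the square root of F. The test was first checked on simulated counts in which far fewer loci changed than were called here, and only in the DEX 4 h group. That check does not cover changes as widespread as those called here. Names, lengths, overlaps and sequences are from RefSeq assembly TAIR10.1, and all its coordinates are those of TAIR10.1. All 10 members were named, TET10 to TET17 were counted and named above a mean of 1 CPM, and for members called at 2 or more DEX times the 3 loci with the highest Pearson correlation (prior count 2, mean log2 CPM of at least 1) were named. Members and lists were chosen with earlier results of these data known. Intervals and the floor of 3 counts cover these libraries, and the floor covers counting error only.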

Additional observations from a re-analysis of the deposited data

Results flagged for a closer look

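Changes over time among DEX groups were called for 3 members, each as a contrast between DEX groups in the edgeR model of all 12 libraries, whose estimate of spread includes the control, and each includes the time elapsed. TET5 was lower at DEX 2 h than at DEX 1 h by a log2 change of -0.72 and at DEX 4 h than at DEX 1 h by -0.76 (edgeR adjusted p 0.00126 and 0.000293). TET2 was higher at DEX 4 h than at DEX 1 h by 0.54 (edgeR adjusted p 0.00102). TRN1 was lower at DEX 4 h than at DEX 1 h by -0.31 (edgeR adjusted p 0.0139), and leaving out DEX 1 h replicate 2 or DEX 4 h replicate 2 ended this call (adjusted p 0.0668 and 0.0604). With only the 2 groups compared in the fit, all 4 stayed called, at edgeR adjusted p 0.00234 and 0.0024 for TET5, 0.00313 for TET2 and 0.0329 for TRN1. For DEX 4 h over DEX 1 h, 3 of 9 members were called, beside 48.6% of all loci.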

How the results depend on the processing

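TET1/TRN2 and TET6 stayed called and higher at all 3 DEX times under every alternative run. Leaving out 1 replicate gave log2 fold changes for TET1/TRN2 between 0.56 and 0.80 (1 h), between 0.59 and 0.71 (2 h) and between 0.78 and 0.82 (4 h). The log2 ratio of TET1/TRN2 to TRN1 exceeded the control by 0.54 to 0.70, 0.72 to 0.96 and 1.01 to 1.11 in the same way. Called members then numbered 2 to 4, 3 and 3 to 5 at the 3 DEX times against the control (3 at 4 h without control replicate 1 or 2). They numbered 1 to 2 for DEX 2 h over DEX 1 h (TRN1 joined without DEX 1 h replicate 3 or DEX 2 h replicate 1) and 2 to 5 for DEX 4 h over DEX 1 h, with 5 without DEX 1 h replicate 1 (TET1/TRN2 and TET3 joined). For DEX 2 h over DEX 1 h the count of 1 became 2 with library totals, which added TRN1 (adjusted p 0.0267). For DEX 4 h over DEX 2 h, 0 members were called in the main edgeR fit or DESeq2, and 2 had an unadjusted p under 0.05 in the main edgeR fit. In edgeR, 1 member, TET3, was called with the replicate block (log2 0.29, adjusted p 0.0484) or with only the 2 groups compared (0.0235). Whether equal replicate numbers pair the samples was not settled. Of 18 same-numbered pairs, 3 had deviations correlated over 0.1 (median 0.058, range -0.108 to 0.149). Of 36 pairs with different numbers, 1 did (median -0.016, range -0.155 to 0.142). The replicate block changed no other call of a member. Signs turned with library totals for TET6 (DEX 2 h over DEX 1 h, -0.014), and among fits without 1 replicate only where nothing was called in the fit of all libraries. Those ranges were -0.011 to 0.30 for TET8 at 1 h, -0.0078 to 0.18 for TET2 at 2 h and -0.084 to 0.011 for TET3 at 4 h against the control. For DEX 2 h over DEX 1 h they were -0.15 to 0.083 for TET1/TRN2 and -0.10 to 0.36 for TET9. For DEX 4 h over DEX 2 h they were -0.24 to 0.061 for TET5, -0.025 to 0.0075 for TET7 and -0.28 to 0.20 for TET8, and for DEX 4 h over DEX 1 h -0.0049 to 0.23 for TET1/TRN2 and -0.15 to 0.33 for TET8. The cause of these shifts was not tested. Depth limits TET4 and TET9.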
